A study of Mus musculus with 16 samples.

Results

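The *Cd86* *Cd83*-high cells described here were a fraction of the myeloid cells that grow in bone marrow stromal cell (BMSC) cultures. Single-cell RNA-Seq was measured in BMSC cultures kept for 21 days in osteoblastic medium with 10 mM β-glycerophosphate. A myeloid cell was a barcode with at least 500 genes, under 20% mitochondrial unique molecular identifiers (UMIs, which count captured mRNA molecules), at least 80 UMIs of *Lyz2*, *Tyrobp*, *Fcer1g*, *C1qa*, *C1qb* and *C1qc* together per 10000 gene UMIs, and under 25 UMIs of *Col1a1*, *Col1a2*, *Sparc*, *Tagln* and *Tpm2* together per 10000. In each sample the 10% of myeloid cells with the highest summed *Cd86*, *Cd83*, *Egr3*, *Nfkbiz* and *Pstpip2* per 10000 gene UMIs were taken as members and compared with the other 90% of the same sample. This gave 1383 members of 13823 myeloid cells, 15847 cells past the first filters and 17793 barcodes in all. The level of these 5 genes therefore chose the cells and is described below without a test.

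The study compared WT cultures (*Dmp1* +/+, *Fgf23* fl/fl, *Dmp1*-cre-), Fgf23cKO cultures (*Dmp1* +/+, *Fgf23* fl/fl, *Dmp1*-cre+), Dmp1KO cultures (*Dmp1* -/-, *Fgf23* fl/fl, *Dmp1*-cre-) and Dmp1KO/Fgf23cKO cultures (*Dmp1* -/-, *Fgf23* fl/fl, *Dmp1*-cre+), all from 12-week-old C57BL/6J mice. The floxed *Fgf23* allele was thus shared by all groups, WT included. The cre recombinase is driven by a *Dmp1* promoter that is active in mature osteoblasts and osteocytes, so the myeloid cells were not its target. DMP1 is a matrix protein of osteocytes whose loss raises their production of FGF23, a hormone that lowers serum phosphate. Each genotype had 3 cultures marked with a sample tag and pooled in 1 droplet reaction, so effects of genotype and of reaction cannot be told apart. A further sample 4 per genotype, read as the untagged cells of the same pool, was described and entered tests only as an alternative. The counts of Dmp1KO replicate 1 were not used here, which left 11 tagged cultures with 1210 members and 10889 other myeloid cells.

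Members numbered 90, 178 and 149 in the WT cultures, 36, 33 and 45 in the Fgf23cKO cultures, 258 and 242 in the Dmp1KO cultures and 76, 63 and 40 in the Dmp1KO/Fgf23cKO cultures. Their number follows from the rule and is not a result. Myeloid cells made up 83.5 to 95.1% of the cells past the first filters. The depth differed between reactions: the median member held 5805 to 6431 UMIs in WT cultures, 13741 and 14232 in Dmp1KO cultures and 29976 to 32804 in the other cultures. Members held fewer UMIs than the other myeloid cells in 11 of 11 tagged cultures, at 0.582 to 0.900 of their median. The share of ribosomal protein UMIs in members was 0.679 to 0.906 of that in the other cells, again lower in 11 of 11 cultures, whereas the mitochondrial share was 0.925 to 1.10 of it. The part of depth and RNA content in the results below was not tested beyond the alternatives in which every cell was thinned to 2000 UMIs, or members were chosen within 5 bins of cells ranked by UMIs. Over the barcode lists of all 16 samples, that of Dmp1KO replicate 1 included, no cell barcode was shared between samples of the same genotype (24 pairs), and 44 were shared over the 96 pairs of samples of different reactions.

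CD86 is a costimulatory ligand that macrophages and dendritic cells show to T cells, and CD83 is a surface protein of activated antigen-presenting cells. *Egr3* encodes an early growth response transcription factor that is made within minutes to hours of a stimulus, and *Nfkbiz* encodes IκBζ, an atypical nuclear IκB protein that is induced by toll-like receptor and interleukin-1 signals and acts with NF-κB at a set of secondary response genes. PSTPIP2 is an adaptor of the F-BAR family that binds PEST-type phosphatases and the inositol phosphatase SHIP1, and mice that lack it develop sterile bone inflammation driven by interleukin-1β. In an activated macrophage, NF-κB and mitogen-activated protein kinases switch on immediate early genes, cytokines and chemokines together with their own inhibitors, so that messages of activators and of brakes are usually found in the same cells.

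The promoters of 6 genes that were higher in the *Cd86* *Cd83*-high cells are shown because NF-κB and immediate early genes are among the lists described below. Windows with a match were chosen. Each line gives the 250 bases before a start site of NCBI RefSeq in GRCm38.p6 (the build the counts use, mm10), 5′ to 3′ on the gene's strand. Capitals mark matches to the NF-κB consensus, to the EGR letters GCGNGGGCG, to the CRE letters TGACGTCA or to the AP-1 letters TGANTCA, searched on both strands.
*Nfkbia*, chr12:55492648-55492897, minus strand: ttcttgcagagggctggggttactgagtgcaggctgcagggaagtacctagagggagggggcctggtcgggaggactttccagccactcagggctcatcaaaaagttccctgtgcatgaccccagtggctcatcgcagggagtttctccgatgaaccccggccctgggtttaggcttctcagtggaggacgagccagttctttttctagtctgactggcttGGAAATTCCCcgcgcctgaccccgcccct
*Rel*, chr11:23770970-23771219, minus strand: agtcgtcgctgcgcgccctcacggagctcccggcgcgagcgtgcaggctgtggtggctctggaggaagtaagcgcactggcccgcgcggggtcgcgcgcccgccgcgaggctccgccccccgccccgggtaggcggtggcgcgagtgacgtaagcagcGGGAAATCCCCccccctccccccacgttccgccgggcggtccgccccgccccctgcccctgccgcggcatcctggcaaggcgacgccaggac
*Nfkbid*, chr7:30422156-30422405, plus strand: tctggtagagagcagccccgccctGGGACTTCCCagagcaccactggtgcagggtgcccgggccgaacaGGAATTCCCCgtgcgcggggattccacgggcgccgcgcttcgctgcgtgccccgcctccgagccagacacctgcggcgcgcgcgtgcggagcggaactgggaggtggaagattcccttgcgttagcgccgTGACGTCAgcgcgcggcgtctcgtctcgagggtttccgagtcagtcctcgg
*Cxcl2*, chr5:90903649-90903898, plus strand: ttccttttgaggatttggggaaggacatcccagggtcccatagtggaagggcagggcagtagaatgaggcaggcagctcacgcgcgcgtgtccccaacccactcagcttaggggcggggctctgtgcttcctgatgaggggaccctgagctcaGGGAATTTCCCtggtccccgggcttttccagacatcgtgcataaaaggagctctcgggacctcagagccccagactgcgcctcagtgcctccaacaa
*Ier3*, chr17:35821463-35821712, plus strand: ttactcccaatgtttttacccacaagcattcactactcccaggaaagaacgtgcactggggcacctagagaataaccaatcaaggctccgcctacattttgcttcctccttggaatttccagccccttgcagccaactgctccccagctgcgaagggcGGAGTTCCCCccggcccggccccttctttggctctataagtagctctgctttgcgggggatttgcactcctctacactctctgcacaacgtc
*Maff*, chr15:79347270-79347519, plus strand: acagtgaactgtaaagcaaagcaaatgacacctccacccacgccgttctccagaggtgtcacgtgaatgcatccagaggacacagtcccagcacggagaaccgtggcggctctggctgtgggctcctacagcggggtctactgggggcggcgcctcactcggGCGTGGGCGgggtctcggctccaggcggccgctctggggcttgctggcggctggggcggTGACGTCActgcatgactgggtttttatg
*Nfkbia* encodes IκBα and *Nfkbid* the nuclear inhibitor IκBNS, *Rel* the NF-κB subunit c-Rel, *Cxcl2* a neutrophil chemokine, *Ier3* an early response protein and *Maff* a small Maf factor. In the *Rel* and *Cxcl2* promoters the NF-κB letters read on both strands and overlap, and the *Nfkbid* window holds 2 separate NF-κB matches and 1 CRE match. The *Maff* window shown is 1 of 3 in the table and holds CRE and EGR letters, whereas another *Maff* start site holds the NF-κB letters. Over all 32851 promoter windows of 300 bases (27025 genes), NF-κB letters were found in 8.46%, AP-1 letters in 7.81%, CRE letters in 1.79% and EGR letters in 5.55%. Among 16 NF-κB feedback and subunit genes, 14 were matched and 12 of their 19 windows (63.2%) held NF-κB letters. Of the 15 genes named below as the most raised, 11 were matched and 5 of their 15 windows (33.3%) held them, against 1 of 10 windows (10.0%) of the 10 most lowered genes and 3 of 14 windows (21.4%) of the lipid-associated macrophage genes. AP-1 letters stood in 3 of 10 windows (30%) of the lowered genes, 1 of 15 (6.67%) of the raised genes, 4 of 14 (28.6%) of the lipid-associated and 0 of 26 of the immediate early genes. EGR letters stood in 10 of the 26 windows (38.5%) of the 20 immediate early genes that were matched. A match is a description of the sequence and not a binding site. None of the 5 score genes was matched.

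The deleted genes were examined first. *Dmp1* was close to absent from members of every genotype, with 1, 0 and 3 UMIs in the WT cultures and 1, 2 and 5 in the Fgf23cKO cultures, and it was at 0 in the members and in the other myeloid cells of every Dmp1KO and Dmp1KO/Fgf23cKO sample. Counting all barcodes, *Dmp1* had 442 to 1770 UMIs in the tagged WT cultures, 0 and 3 in the Dmp1KO cultures and 26 to 76 in the Dmp1KO/Fgf23cKO cultures, so the few *Dmp1* molecules of Dmp1KO/Fgf23cKO cultures were outside the myeloid cells. *Fgf23* had no UMI in any of the 1383 members, a count that allows up to 0.217% of members to hold one by a limit of 3 cells and has an exact 95% upper bound of 0.266%. Both limit cells with a captured UMI, not cells that express the gene. An *Fgf23* UMI was found in 10 of the 12440 other myeloid cells.

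*Cd86* (ENSMUSG00000022901, chr16:36603869-36666081 in mm10, minus strand) was the most abundant score gene. In members it stood at 729, 491 and 461 UMIs per 1000000 gene UMIs (CPM) in WT, 767, 947 and 659 in Fgf23cKO, 859 and 1041 in Dmp1KO, and 1224, 1024 and 1104 in Dmp1KO/Fgf23cKO cultures. In the other myeloid cells it stood at 131, 103 and 95.1 CPM in WT, 192, 219 and 112 in Fgf23cKO, 63.4 and 94.8 in Dmp1KO, and 322, 310 and 324 in Dmp1KO/Fgf23cKO cultures. *Cd86* in members thus tended to be lowest in WT, where culture 1 overlapped with Fgf23cKO, whereas in the other cells it was lowest in Dmp1KO and highest in Dmp1KO/Fgf23cKO cultures. *Cd83* (ENSMUSG00000015396, chr13:43784775-43803132, plus strand) stood in members at 240, 229 and 180 CPM in WT, 258, 259 and 222 in Fgf23cKO, 291 and 347 in Dmp1KO, and 554, 627 and 665 in Dmp1KO/Fgf23cKO cultures, so that the Dmp1KO/Fgf23cKO cultures did not overlap with any other genotype. In the other cells *Cd83* ranged from 44.3 to 90.3 CPM in WT, Fgf23cKO and Dmp1KO and from 167 to 194 CPM in Dmp1KO/Fgf23cKO cultures.

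*Egr3* (ENSMUSG00000033730, chr14:70077203-70082614, plus strand) was the least abundant, at 71.3 to 92.6 CPM in WT members and 124 to 209 CPM in members of the other genotypes. In the other myeloid cells *Egr3* was at 3.94 and 7.54 CPM in Dmp1KO, 17.9 to 19.4 in WT, and 22.2 to 37.0 in Fgf23cKO and Dmp1KO/Fgf23cKO cultures. *Nfkbiz* (ENSMUSG00000035356, chr16:55811375-55838899, minus strand) stood at 399 to 421 CPM in WT members, 407 to 567 in Fgf23cKO, 571 and 671 in Dmp1KO and 606 to 673 in Dmp1KO/Fgf23cKO members, a narrower range than that of *Cd83*. *Pstpip2* (ENSMUSG00000025429) stood at 166 to 223 CPM in WT members, 171 to 396 in Fgf23cKO, 235 and 285 in Dmp1KO and 411 to 565 in Dmp1KO/Fgf23cKO members. In the other cells *Pstpip2* was 14.2 and 24.2 CPM in Dmp1KO against 36.6 to 108 CPM in the remaining genotypes. The plot of score genes by sample shows that the distance between members and the other cells was widest in Dmp1KO for each gene. The summed score level of members was 4.40 ± 0.213 times that of the other cells in WT (SD, n = 3), 3.95 ± 0.298 in Fgf23cKO (n = 3), 9.92 ± 0.896 in Dmp1KO (n = 2) and 3.31 ± 0.123 in Dmp1KO/Fgf23cKO cultures (n = 3).

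**Figure D1:**
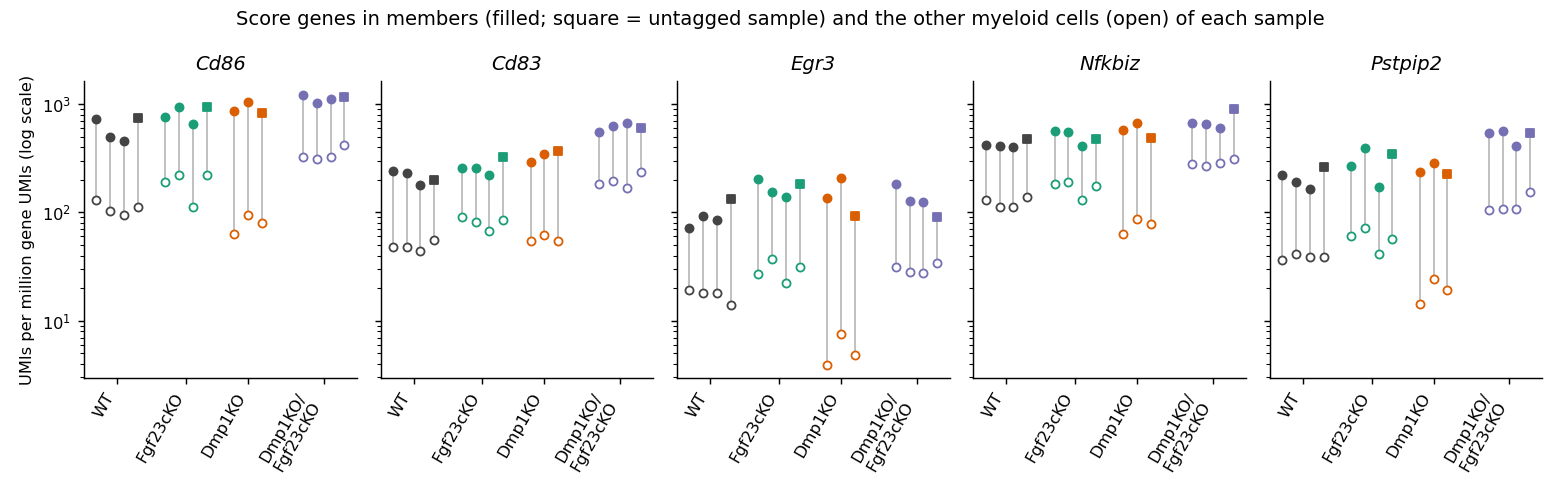
CPM (log axis) of the 5 score genes, summed over members (filled) and over the other myeloid cells (open) of each sample and joined by a line; circles are tagged cultures and squares the untagged samples. The open points of Dmp1KO lie lowest for *Cd86*, *Egr3*, *Nfkbiz* and *Pstpip2*, while the filled points of the genotypes lie closer together.

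The rule sets a level, not a boundary. The lowest member and the highest cell outside stood at 11.7 and 11.7 score UMIs per 10000 in WT culture 1, at 15.97 and 15.37 in Fgf23cKO culture 1, at 12.4 and 12.3 in Dmp1KO culture 2, and at 24.02 and 24.02 in Dmp1KO/Fgf23cKO culture 1. A cell that was outside in a Dmp1KO/Fgf23cKO culture could therefore have been a member in WT, and the median of the other cells in Dmp1KO/Fgf23cKO (8.57 to 8.87) stood well above that in Dmp1KO (1.24 and 1.68) and WT (2.56 to 3.06). All 5 score genes were detected together in 5.37 to 67.5% of members (median of cultures 48.9%) and in 0.372 to 26.5% of the other cells, and these shares move with depth.

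Each score gene was also read in cells chosen by the other 4, as a description. There *Egr3* stood above its level in the remaining cells by 2.15 on the log2 scale, *Pstpip2* by 1.63, *Cd86* by 1.57, *Cd83* by 1.31 and *Nfkbiz* by 1.27, each in 11 of 11 cultures. When the UMIs of each cell were divided at random into 2 parts, with the cells chosen on the first and the same genes measured on the second, a difference that the choice favours, the values were 2.61 for *Egr3*, 2.29 for *Pstpip2*, 2.08 for *Cd86*, 1.72 for *Cd83* and 1.52 for *Nfkbiz*. The same choice was not fully repeatable: in a tagged culture 65.1 to 88.2% of the cells chosen on the first part of the UMIs were members of the full choice, and after thinning every cell to 2000 UMIs 41.7 to 70.8% were.

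Genes outside the rule were then compared between members and the other myeloid cells of the same culture. Of 12505 genes tested with edgeR's quasi-likelihood test with culture as a block, 3327 (26.6%) were higher and 3871 (31.0%) lower in members at a Benjamini-Hochberg adjusted P under 0.1, with a median difference of -0.02 on the log2 scale over all genes. Since these genes were read in the same cells that the score had chosen, the calls below describe genes that go with the score. Genes were named only among those called, with the same direction in all 11 tagged cultures and at least 20 CPM in the higher mean. Within this limit the 15 genes with the largest rise were *Nr4a3*, *Tnfsf18*, *Il1b*, *Ly6a*, *Nr4a1*, *Tbc1d30*, *Cp*, *Maff*, *Ier3*, *Zc3h12c*, *Egr1*, *Kdm6b*, *Tnf*, *Cxcl2* and *Tagap*. The call of *Cp* was lost without cells that held cycling or osteoclast UMIs. Within the same limit the 10 genes with the largest fall were *Mmp12*, *Npy*, *Fabp4*, *Dach1*, *Mfge8*, *Il7r*, *Itgax*, *Ctsk*, *Htr2b* and *Plpp3*.

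**Figure D2:**
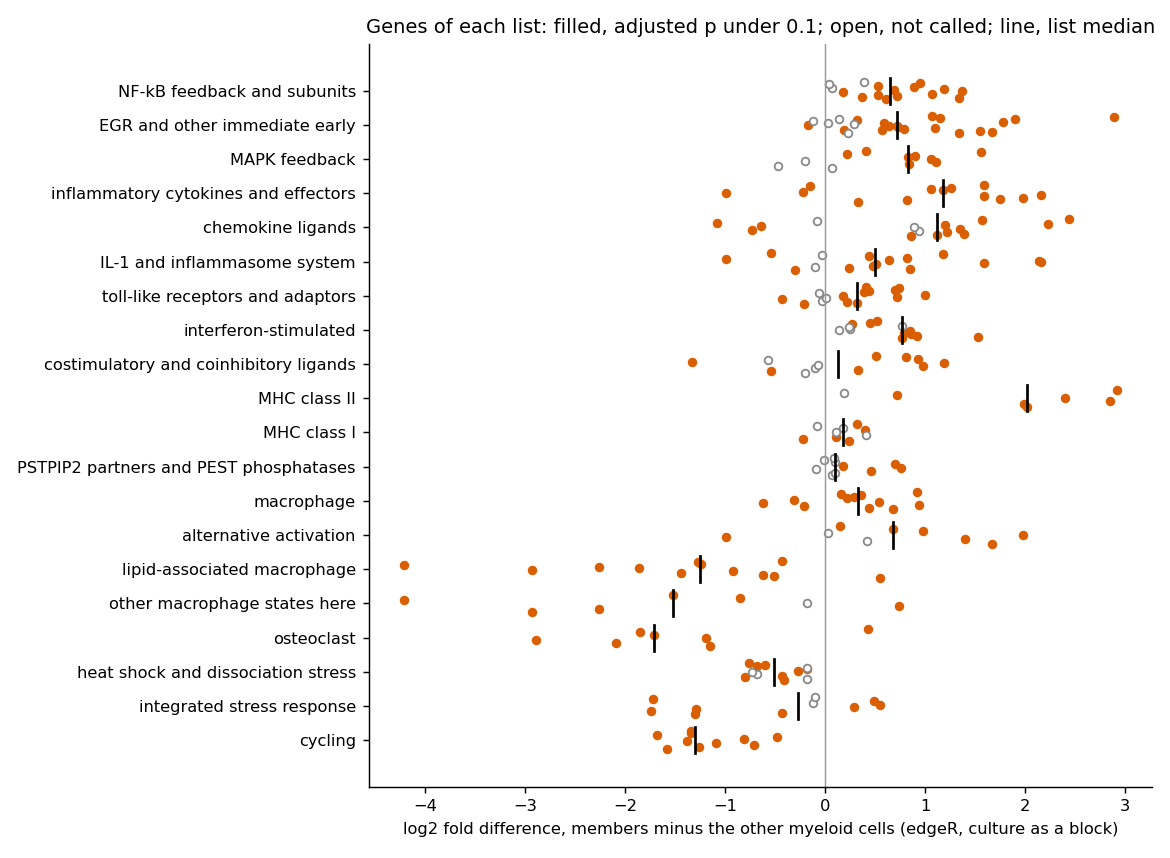
Log2 fold difference between members and the other myeloid cells for the tested genes of 20 lists, with genes at an edgeR adjusted P under 0.1 filled, the others open and the median of each list as a line. NF-κB, immediate early, cytokine and chemokine lists lie mostly above 0, and lipid-associated, osteoclast, heat shock and cycling lists mostly below it.

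Of the NF-κB feedback and subunit genes, 13 of 16 were higher in members, beside 26.6% of all genes, none was lower and 3 were not called. The median difference was 0.65 on the log2 scale. Without cells that held cycling or osteoclast UMIs, 8 of 16 were called higher, beside 16.7% of all genes. *Nfkbia* was at 175 to 194 CPM in WT members, 246 to 498 in Fgf23cKO, 429 and 440 in Dmp1KO and 500.04 to 615 in Dmp1KO/Fgf23cKO members, against 95.9 to 307 CPM in the other cells of the 11 cultures. Its level in the other cells of Dmp1KO/Fgf23cKO cultures was above that of WT members, although members exceeded the other cells in each culture (log2 difference 1.07, SE 0.12, edgeR adjusted P = 5.14e-06). *Rel* was at 320 ± 69.2 CPM in members and 137 ± 33.7 CPM in the other cells (SD, n = 11; log2 difference 1.19, SE 0.08, edgeR adjusted P = 5.24e-10). *Nfkbid* differed by 1.37 and *Nfkb1*, which encodes p105 and p50, by 0.72 on the log2 scale. The promoters of *Nfkbia*, *Rel* and *Nfkbid* are those printed above.

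Cytokines and effectors of inflammation were higher for 10 of 13 tested genes and lower for 3, beside 26.6% and 31.0% of all genes. Of the 18 listed, 5 were not tested for low counts. *Tnf*, the founding cytokine of its family, was at 324, 242 and 273 CPM in WT members, 223, 383 and 266 in Fgf23cKO, 253 and 333 in Dmp1KO and 348, 355 and 325 in Dmp1KO/Fgf23cKO members. In the other cells *Tnf* was at 139, 127 and 129 CPM in WT, 104, 124 and 74.9 in Fgf23cKO, 29.5 and 36.4 in Dmp1KO and 141, 141 and 137 in Dmp1KO/Fgf23cKO cultures. Members of WT, Fgf23cKO and Dmp1KO cultures overlapped, those of Dmp1KO/Fgf23cKO cultures lay just above the highest WT culture and within the range of Fgf23cKO, and every member value lay above every value of the other cells (log2 difference 1.58, SE 0.23, edgeR adjusted P = 0.000176). A *Tnf* UMI was found in 72.2% of members and 48.2% of the other cells. *Il1b*, the cytokine that accumulates in mice without PSTPIP2, was rarer, at 6.62 to 74.98 CPM in members and 4.02 to 19.1 CPM in the other cells, with a UMI in 15.4% and 5.60% of cells. Its smallest difference was in Dmp1KO/Fgf23cKO culture 2, at 21.5 against 19.1 CPM. *Nlrp3*, the sensor of the inflammasome, was at 219 ± 39.0 CPM against 101 ± 34.6 CPM (log2 difference 1.18, SE 0.17, edgeR adjusted P = 0.000143). In the wider interleukin-1 and inflammasome list 11 of 16 genes were higher and 3 lower, among them the adaptor *Pycard*, which differed by -0.54 on the log2 scale, and after thinning to 2000 UMIs 5 of 14 were called higher, beside 16.5% of all genes.

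Chemokine ligands were higher for 9 of 15 tested genes, lower for 3 and not called for 3, beside 26.6% higher and 31.0% lower of all genes. Their median was 1.11. The monocyte attractant *Ccl2* was at 1285 ± 150 CPM in members and 611 ± 206 CPM in the other cells (log2 difference 1.11, SE 0.19, edgeR adjusted P = 0.000586). *Ccl3* differed by 1.39, *Ccl7* by 1.35 and *Ccl4* by 1.22 on the log2 scale, each in 11 of 11 cultures. *Cxcl2* was more variable, at 182 to 1463 CPM in members and 107 to 473 CPM in the other cells.

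Of the EGR and other immediate early genes, 17 of 23 tested were higher and 1 lower, beside 26.6% and 31.0% of all genes, with a median of 0.72. *Nr4a3*, an orphan nuclear receptor induced early by many stimuli, showed the largest rise among the named genes, at 38.7 ± 25.3 CPM in members and 5.51 ± 3.87 CPM in the other cells (SD, n = 11; log2 difference 2.89, SE 0.33, edgeR adjusted P = 2.51e-05). It was found in 19.2% of members and 4.44% of the other cells. *Egr1* was at 124 to 334 CPM in members and 11.4 to 149 CPM in the other cells, and this includes 11.4 and 18.7 CPM in the other cells of Dmp1KO cultures. The abundant factors *Junb*, *Jun* and *Klf6* differed by 0.72, 0.63 and 0.59 on the log2 scale. *Fos* differed by 0.19 only, and by -0.03 when cells with cycling or osteoclast UMIs were left out. Its call was also lost after thinning, without the filter on low counts, with the top 5% of cells, on separate UMIs and without Dmp1KO replicate 2 or Dmp1KO/Fgf23cKO replicate 2. Feedback inhibitors of the MAP kinase pathway were higher for 8 of 11 tested genes and lower for none, beside the same shares. They were led by *Spred1* (0.90), *Dusp16* (0.84) and *Dusp6* (0.83).

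Heat shock and chaperone genes did not move with the immediate early genes. None of 12 was higher and 8 were lower in members, beside 26.6% and 31.0% of all genes. Their median was -0.51 on the log2 scale, with *Hspe1* at -0.60, *Hsp90ab1* at -0.43 and *Hspa8* at -0.18. The list holds no immediate early gene, and what part cell dissociation has in the rise of those genes was not tested. Genes of the integrated stress response were higher for 3 of 10, near the 26.6% of all genes, and lower for 5. At an adjusted P under 0.05, without the filter on low counts and within 5 bins of cells ranked by UMIs, 1 of 10 was called higher and 5 lower.

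Receptors followed a mixed pattern. Of the toll-like receptors and their adaptors, 10 of 15 tested were higher and 2 lower, beside 26.6% and 31.0% of all genes. *Tlr2* was at 186 ± 56.5 CPM in members and 97.3 ± 40.8 CPM in the other cells (log2 difference 1.00, SE 0.16, edgeR adjusted P = 0.000307), and *Tlr7* was higher by 0.70. The lipopolysaccharide coreceptor *Cd14* was at -0.21, a call lost within the UMI bins, with the top 5% of cells, with the untagged samples and without cells that held cycling or osteoclast UMIs. After thinning to 2000 UMIs, 3 of 13 genes of this list were called higher, beside 16.5% of all genes. Interferon-stimulated genes were higher for 9 of 13 tested, beside 26.6% of all genes, and lower for none, with *Irf1* at 0.85 and *Stat2* at 0.45. After thinning, when *Stat2* lost its call, 1 of 10 was called higher, beside 16.5% of all genes. Among partners of PSTPIP2 and PEST-type phosphatases, 4 of 10 were higher, beside 26.6% of all genes: *Ptpn12*, which encodes PTP-PEST, by 0.75, *Ptpn22* by 0.70, *Inpp5d*, which encodes SHIP1, by 0.46 and *Ptpn18* by 0.18 on the log2 scale. The other 6 were not called, and the median of this list was 0.10. The call of *Ptpn18* was lost after thinning, without the filter on low counts, without Dmp1KO replicate 2 and without cells that held cycling or osteoclast UMIs.

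Costimulatory and coinhibitory ligands beyond the score genes were higher for 6 of 12 tested and lower for 2, beside 26.6% and 31.0% of all genes, with a median of 0.13. With members chosen within 5 bins of cells ranked by UMIs, 4 of 12 were higher and 4 lower, with a median of 0.05. *Cd80*, the other B7 ligand of CD28, was at 30.9 ± 9.53 CPM in members and 17.0 ± 6.13 CPM in the other cells (log2 difference 0.98, SE 0.18, edgeR adjusted P = 0.000505). *Vsir*, which encodes the inhibitory ligand VISTA, was higher by 0.51, whereas *Slamf7* was lower, at -1.33. Of the MHC class I genes, 4 of 9 were higher and 1 lower, beside 26.6% and 31.0% of all genes, with *Tapbp* at 0.32, *B2m* at 0.24 and *H2-D1* at -0.22 on the log2 scale. After thinning 1 of 9 was higher and 1 lower, and *Tapbp* was no longer called.

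MHC class II genes were called higher for 6 of 7 tested, beside 26.6% of all genes, with a median of 2.02, but few cells carried them. *H2-Aa* was at 43.9, 22.3 and 148 CPM in WT members, 0, 185 and 57.7 in Fgf23cKO, 155 and 103 in Dmp1KO, and 0, 0 and 0.824 in Dmp1KO/Fgf23cKO members, and it was higher than in the other cells in 7 of 11 cultures. A cell with 10 or more UMIs of *H2-Aa*, *H2-Ab1* and *H2-Eb1* together was found among 9 of 417 WT members (2.16%, exact 95% interval 0.992 to 4.06%), 3 of 114 Fgf23cKO members (2.63%, 0.546 to 7.50%), 32 of 500 Dmp1KO members (6.4%, 4.42 to 8.92%) and 0 of 179 Dmp1KO/Fgf23cKO members, which allows a share of up to 1.68% by a limit of 3 cells and has an exact upper bound of 2.04%. In the other cells the shares were 0.588%, 0.292%, 2.93% and 0.622% in the same order. These intervals cover counting error only and not the spread between cultures. When all cells with 10 or more of these UMIs were left out and members chosen anew, an alternative chosen after seeing the data, *H2-Aa* and *H2-Ab1* were no longer called and 3 of 6 tested genes of the list were called higher, beside 26.4% of all genes. With members chosen within 5 bins of cells ranked by UMIs, 4 of 7 were called higher, beside 23.4% of all genes, the median was 1.36, and *Cd74* and *H2-Aa* lost their calls. That of *H2-Aa* was also lost by DESeq2. *H2-DMa*, a class II chaperone, was spread more evenly, at 54.5 ± 12.1 CPM in members and 31.3 ± 5.59 CPM in the other cells in 11 of 11 cultures.

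**Figure D3:**
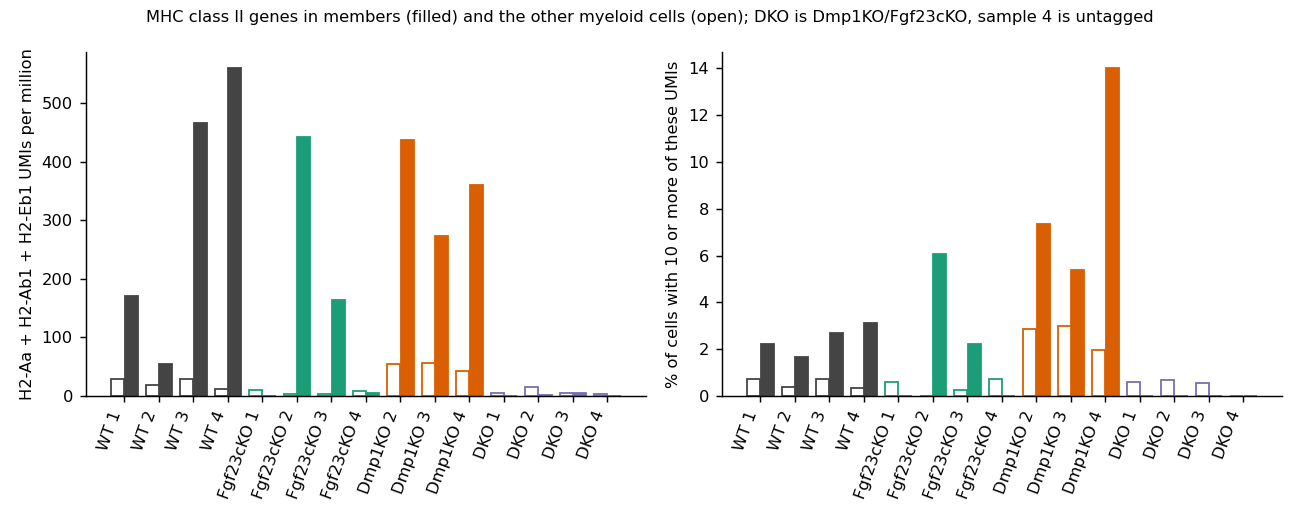
Left, summed *H2-Aa*, *H2-Ab1* and *H2-Eb1* CPM, and right, the percentage of cells with 10 or more of these UMIs, in members (filled bars) and the other myeloid cells (open bars) of each sample. Members of the 3 tagged Dmp1KO/Fgf23cKO cultures hold 0.808, 1.43 and 5.77 CPM, and members of the Dmp1KO cultures 437 and 273.

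The identity of the members was checked against markers that the rule did not use. Of 12 macrophage markers all were detected in members, and 9 were higher and 3 lower than in the other myeloid cells, beside 26.6% and 31.0% of all genes. Their summed level was 6397 to 7587 CPM against 5618 to 6486 CPM, higher in 11 of 11 cultures. *Mertk*, an efferocytosis receptor, differed by 0.92 and *Csf1r*, the receptor for macrophage colony-stimulating factor, by 0.53, whereas *Cd68* and *Ctss* were lower, at -0.62 and -0.31. Markers of other myeloid types were not all at the level of the remaining cells, so the cells are called by their rule and not macrophages. Of 12 dendritic cell markers 5 were tested, and *Irf4*, *Il4i1* and *Zbtb46* were higher, at 3.47 ± 1.60 against 1.58 ± 0.680 CPM for *Irf4*, while *Batf3* was lower. The call of *Zbtb46* was lost at an adjusted P under 0.05, without the filter on low counts, within the UMI bins, by DESeq2 and without either Dmp1KO culture, that of *Il4i1* when cells were chosen and measured on separate UMIs, and that of *Batf3* by DESeq2 and without cells that held cycling or osteoclast UMIs. The dendritic cell markers summed to 6.58 to 53.8 CPM in members and 7.34 to 20.9 CPM in the other cells, with *Il4i1* the most abundant and *Cd209a* at 0 in all members. *Il4i1* stood out in WT culture 3, at 37.4 CPM against 0.823 to 9.15 CPM in members of the other 10 cultures. Monocyte markers summed to 723 to 1132 CPM in members and 715 to 913 CPM in the other cells, higher in members in 9 of 11 cultures, and *Chil3* was at 0 in all members. Of 4 tested 2 were higher and 2 lower, with a median of 0.15. The most abundant, *F13a1*, differed by 1.16, whereas *S100a4* differed by -1.52 and *Fn1* by -0.76, a call lost at an adjusted P under 0.05, on separate UMIs and without either Dmp1KO culture. *Ccr2* was called higher, at 13.2 ± 20.1 CPM against 4.93 ± 4.71 CPM, in 7 of 11 cultures, and its call was unstable. It was lost without the cells rich in class II UMIs, at an adjusted P under 0.05, without the filter on low counts, within the UMI bins, by DESeq2, and without WT replicate 1 or 3, Fgf23cKO replicate 2 or 3 or either Dmp1KO culture. What part dendritic cells or monocytes have in the results was not tested beyond that.

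Markers of more distant cell types were low. T and NK cell markers summed to at most 0.901 CPM in members and 0.863 CPM in the other cells, with 7 of 10 at 0 in all members, among them *Cd3e* and *Trac*. B cell markers summed to 0.808 to 29.3 CPM in members and 0.379 to 15.1 CPM in the other cells, higher in members in 10 of 11 cultures, with *Pax5* and *Mzb1* at 0. The most abundant and only one tested, *Ighm*, the heavy chain of IgM, was called higher by 1.21 on the log2 scale, in 9 of 11 cultures, a call lost after thinning and without cells that held cycling or osteoclast UMIs. What part B cells have in the results was not tested. Neutrophil markers summed to 0.687 to 5.48 CPM in members and 4.42 to 22.0 CPM in the other cells, with *Ly6g* and *Mpo* at 0 in members. Stromal and osteoblast markers summed to 79.1 to 159 CPM in members and 65.0 to 143 CPM in the other cells, higher in members in 6 of 11 cultures, with *Ibsp* the most abundant overall. Endothelial markers summed to at most 5.48, adipocyte markers to at most 3.31 and mast cell or basophil markers to at most 0.901 CPM in members. *Pf4*, listed with the megakaryocyte markers and also made by macrophages, was called higher in members, by 0.77 on the log2 scale in 10 of 11 cultures.

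In the lipid-associated macrophage list 11 of 12 genes were lower and 1 was higher, beside 31.0% and 26.6% of all genes. The median was -1.25 on the log2 scale. *Lgals3*, a galectin, was at 818 to 2594 CPM in members and 1900.2 to 11582 CPM in the other cells. *Gpnmb* was at 1497 ± 290 CPM against 2712 ± 399 CPM (SD, n = 11; log2 difference -0.92, SE 0.14, edgeR adjusted P = 0.000164). The exception was *Apoe*, the apolipoprotein and most abundant gene of the list, at 22645 ± 3567 CPM in members and 15329 ± 4251 CPM in the other cells. *Mmp12*, macrophage elastase, showed the largest fall of the genes named above as most lowered. It was at 13.2 to 196 CPM in members and 381 to 2394 CPM in the other cells (log2 difference -4.21, SE 0.28, edgeR adjusted P = 7.75e-07), with no overlap between the groups. The lipid handling genes *Fabp4* and *Lpl* differed by -3.60 and -2.26 on the log2 scale, and the integrin *Itgax*, which encodes CD11c, by -2.94.

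Osteoclast genes were lower for 6 of 7 tested, beside 31.0% of all genes, with a median of -1.72. *Ctsk*, the collagenase of the resorbing osteoclast, was at 19.2 ± 15.4 CPM in members and 124 ± 84.0 CPM in the other cells (log2 difference -2.89, SE 0.33, edgeR adjusted P = 3.4e-05), and the proton pump subunit *Atp6v0d2* differed by -2.10. *Nfatc1*, a regulator of osteoclast formation that other macrophages also express, was slightly higher, at 0.43. All 10 cycling genes were lower in members, with a median of -1.30 and *Birc5* at -1.58. With members chosen within 5 bins of cells ranked by UMIs, 4 of 10 were called lower, beside 27.8% of all genes, the median was -0.42, and *Mki67* and *Top2a* were no longer called. The call of *Nfatc1* was lost after thinning. When cells with cycling or osteoclast UMIs were left out, 22.3 to 66.3% of the myeloid cells of a culture remained, and 1723 genes were higher and 2184 lower.

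Genes of alternative activation were higher for 6 of 9 tested and lower for 1, beside 26.6% and 31.0% of all genes. The mannose receptor *Mrc1* was at 1929.5 ± 266 CPM in members and 1074 ± 442 CPM in the other cells (log2 difference 0.98, SE 0.24, edgeR adjusted P = 0.00615), the scavenger receptor *Stab1* differed by 0.68 and the transcription factor *Maf* by 0.74. The call of *Stab1* was lost without cells that held cycling or osteoclast UMIs. The folate receptor *Folr2* was lower, at -0.99.

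The size of the difference between members and the other cells varied with genotype. An interaction of genotype and membership was called for 2600 of 12505 genes (20.8%) by edgeR's quasi-likelihood test, and in 2225 of them (85.6%) the difference was largest in Dmp1KO. The score that chose the members was itself 9.92 times higher in members in Dmp1KO, against 4.40 in WT, 3.95 in Fgf23cKO and 3.31 in Dmp1KO/Fgf23cKO. For genes that go with the score, the calls and this share thus follow in part from the choice, and nothing is read from the share. Each of the 15 genes named above as most raised differed most in Dmp1KO, with a median over genes of 3.21 on the log2 scale against 1.20 in WT, 1.61 in Fgf23cKO and 1.51 in Dmp1KO/Fgf23cKO, and 14 of the 15 were called in the interaction. Of the 10 most lowered genes 7 were called, and 4 of the 10 differed most in Dmp1KO. These genes were named for a large difference averaged over the genotypes, to which Dmp1KO contributes, so these counts follow in part from the choice and nothing is read from them. The number of interaction calls fell to 1256 without Dmp1KO replicate 3, to 1351 without Dmp1KO replicate 2, to 769 after thinning and to 1430 when members were chosen within 5 bins of cells ranked by UMIs.

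**Figure D4:**
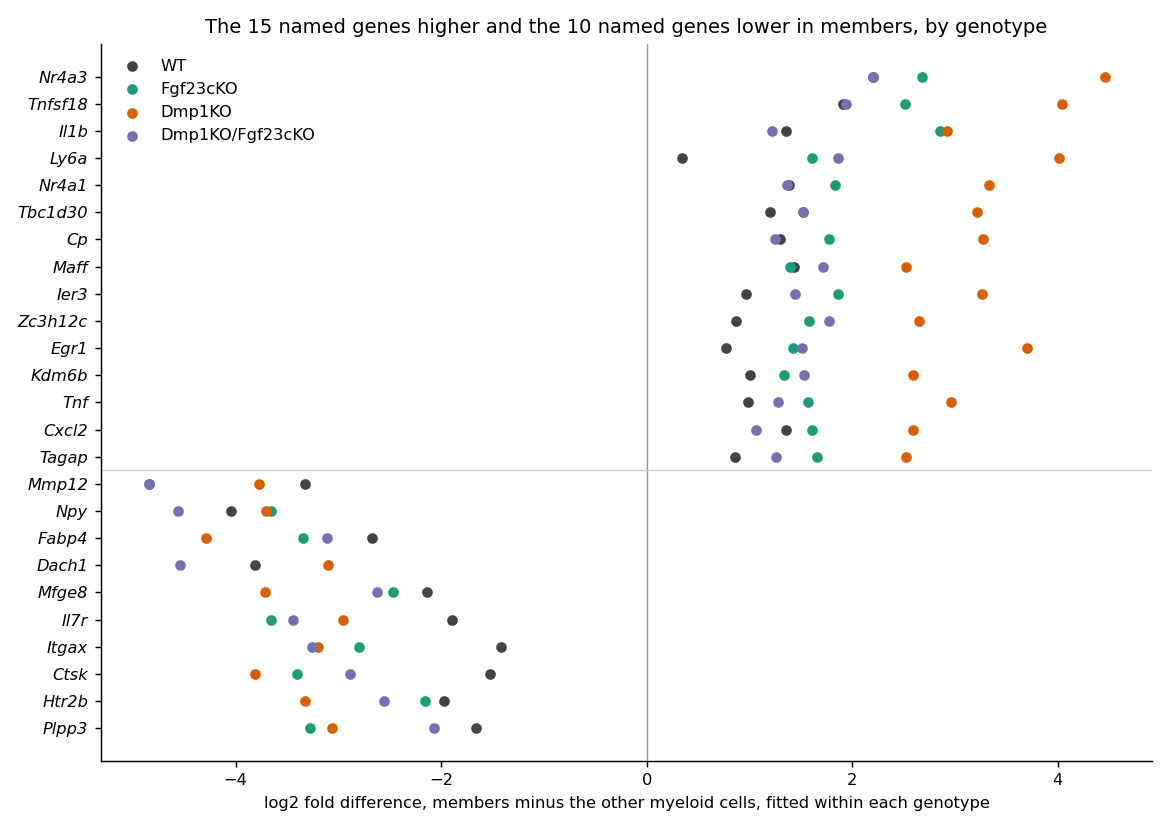
Log2 fold difference between members and the other myeloid cells within each genotype for the 15 most raised and 10 most lowered named genes; each point is the fit over the cultures of 1 genotype, and points that coincide hide each other. Each of the 15 raised genes lies farthest to the right in Dmp1KO. *Dach1* has no point for Fgf23cKO, where it had no UMI in members.

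The levels show where these gaps arose. *Spp1*, which encodes osteopontin and shared the smallest interaction p with *Clec4n* (edgeR adjusted P = 1.66e-14), was at 1102 to 1295 CPM in WT members and 1702 and 1439 CPM in Dmp1KO members, but at 1399 to 1519 CPM in the other WT cells and 13285 and 10659 CPM in the other Dmp1KO cells. *Clec4n*, which encodes Dectin-2, was at 1293 to 1472 CPM in WT members and 735 and 951 CPM in Dmp1KO members, and at 910 to 1055 and 87.2 and 141 CPM in the other cells. The members of the 2 genotypes thus lay nearer to each other than the other cells did. *Mrc1* stood at 190 and 327 CPM in the other Dmp1KO cells against 1315 to 1396 CPM in WT, and at 1352 and 1788 CPM in Dmp1KO members against 1699.8 to 2081 CPM in WT members. *Pf4* went further, being higher in Dmp1KO members (1381 and 1622 CPM) than in WT members (772 to 870 CPM) and lower in the other Dmp1KO cells (220 and 329 CPM) than in the other WT cells (752 to 786 CPM). *Marcksl1* and *Gm17268* completed the 5 smallest p values, and both differed most in Dmp1KO.

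**Figure D5:**
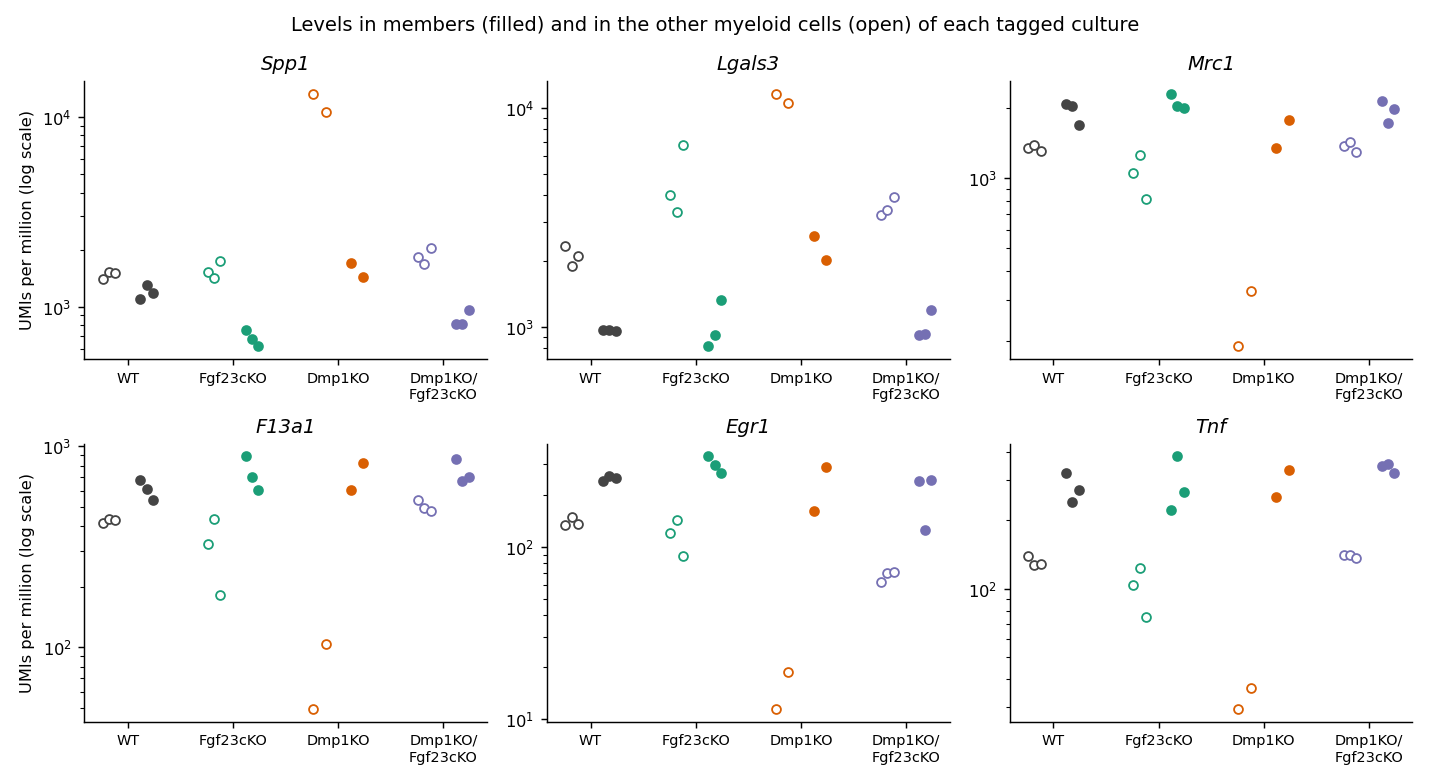
CPM (log axis) of *Spp1*, *Lgals3*, *Mrc1*, *F13a1*, *Egr1* and *Tnf* in members (filled) and the other myeloid cells (open), 1 point per tagged culture. The open points of Dmp1KO stand apart from those of the other genotypes in each panel, for *Spp1* at 13285 and 10659, while the filled points stand closer together.

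Genotypes were then compared within members. The 4 comparisons share WT, Dmp1KO or Dmp1KO/Fgf23cKO cultures, and each also compares 2 droplet reactions. Beside each, the same contrast was fitted in the other myeloid cells, whose sums are deeper. Of 13598 genes tested there, 9534 were called for Dmp1KO against WT and 6574 for Fgf23cKO against WT. For Dmp1KO/Fgf23cKO, 7594 were called against WT and 9057 against Dmp1KO. The lists were counted in members only, and whether their genotype counts are particular to members was not tested. Of 9449 genes tested, 1226 (13%) were higher and 1361 (14.4%) lower in Dmp1KO than in WT members by edgeR's quasi-likelihood test. These 2587 calls became 1069 after thinning and 4086 with members chosen within 5 bins of cells ranked by UMIs. They also fell when a Dmp1KO culture was left out. *Mfge8*, a bridge between apoptotic cells and phagocytes, was at 114 and 114 CPM in Dmp1KO members and 3.66, 5.79 and 6.39 CPM in WT members (log2 difference 4.33, SE 0.25, edgeR adjusted P = 3.13e-11), and in the other cells it differed by 6.11. The neuropeptide gene *Npy* was higher by 3.62 and *Ighm* by 3.23 on the log2 scale. *Slc15a2*, a peptide transporter, was at 26.4 ± 1.92 CPM in Dmp1KO members, and WT members held 1 UMI of it. *Bmp2*, an osteogenic growth factor, was at 18.5 and 43.4 CPM in Dmp1KO members and 0, 5.79 and 0.912 CPM in WT members (log2 difference 3.43, SE 0.69, edgeR adjusted P = 0.00396), but at 1.23 and 1.58 CPM against 1.54 to 2.35 CPM in the other cells (log2 difference -0.23, adjusted P = 0.461). In the untagged Dmp1KO sample *Bmp2* was at 3.02 CPM in members.

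Among the 5 largest falls in Dmp1KO members, *Slc16a9*, a carnitine and creatine transporter, was at 4.62 ± 2.24 CPM against 79.8 ± 10.5 CPM in WT members (log2 difference -4.15, SE 0.25, edgeR adjusted P = 4.73e-11). *Ccdc152* differed by -3.61, *Gm28198* by -3.53, *Hsf3* by -3.47 and *Kazn* by -3.37, and the other cells moved the same way for all 5. The call of *Kazn* was lost with the top 5% of cells as members. NF-κB genes were higher for 5 of 16 and lower for none, and cytokines and effectors higher for 5 of 13. MHC class I genes were lower for 5 of 8 tested, beside 14.4% of all genes. Genes of alternative activation were lower for 3 of 8. Toll-like receptors and adaptors were higher for 1 and lower for 4 of 15. No list gene of the cycling set was called among 10.

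In Fgf23cKO compared with WT members, 773 genes (8.18%) were higher and 850 (9%) lower. These 1623 calls became 1055 without WT replicate 2 and 359 after thinning. *Il1b* was at 51.0, 56.8 and 46.0 CPM in Fgf23cKO and 20.1, 6.62 and 11.9 CPM in WT members (log2 difference 2.16, SE 0.43, edgeR adjusted P = 0.00614), without overlap, while in the other cells the difference was 0.79 (adjusted P = 0.142). The untagged samples stood at 28.2 CPM in Fgf23cKO and 26.3 CPM in WT members, and the call was lost with the top 5% of cells as members. The chemokine *Cxcl14* was higher by 2.26 on the log2 scale in members and by 1.95 in the other cells. *AY036118*, *Gm42418* and *Gm19951* were higher by 2.36, 2.22 and 1.91. *AY036118* (chr17:39847113-39848035, minus strand) lies within *Gm42418* (chr17:39846958-39848788, plus strand), so the rises of these genes come from the same locus. *Gm42418* overlaps a ribosomal RNA repeat, and it was at 5291 to 6243 CPM in Fgf23cKO and 4944 to 5844 CPM in Dmp1KO/Fgf23cKO members, against 1137 to 1381 CPM in WT and 2019.8 and 2112 CPM in Dmp1KO members, with like values in the other cells. Its level thus differed by droplet reaction as well as genotype, and these cannot be told apart. *Rapgef4* was lower, at -3.13, *Ccr2* at -3.08, *Ccdc152* at -2.98, *Gm28198* at -2.94 and *Ccdc162* at -2.77. The calls of *Rapgef4* and *Ccdc162* were lost with the top 5% of cells as members, that of *Ccr2* without Fgf23cKO replicate 1 or 2 and by DESeq2, and that of *Gm28198* by DESeq2. NF-κB genes were higher for 3 of 16 and chemokine ligands for 4 of 13, beside 8.18% of all genes. Cytokines and effectors were higher for 1 of 13, near that share, and no interferon-stimulated gene of 12 was called.

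In Dmp1KO/Fgf23cKO compared with WT members, 1145 genes (12.1%) were higher and 1259 (13.3%) lower. These 2404 calls became 715 after thinning. *Zc3h12c*, an RNase of the Regnase family that limits cytokine mRNA, was at 400.2, 508 and 311 CPM against 104, 67.0 and 67.5 CPM (log2 difference 2.40, SE 0.38, edgeR adjusted P = 0.00403). The neutrophil chemokine *Cxcl1* was at 108, 157 and 145 CPM against 18.3, 38.9 and 19.2 CPM (log2 difference 2.29, SE 0.34, edgeR adjusted P = 0.00113). Both rose in the other cells as well, by 1.53 and 2.004 on the log2 scale. NF-κB genes were higher for 9 of 16 and lower for none, beside 12.1% and 13.3% of all genes, with a median of 0.53 against 0.01 over all genes. *Gm43305*, *Gm42418* and *Gm19951* were the remaining named rises, and the call of *Gm43305* was lost at an adjusted P under 0.05, without any 1 of the WT cultures and without Dmp1KO/Fgf23cKO replicate 1 or 3. *Adcy2*, an adenylyl cyclase gene, had no UMI in Dmp1KO/Fgf23cKO members and stood at 23.3 ± 2.02 CPM in WT members, at least 43.9-fold lower against a floor of 3 UMIs over the group. *H2-Aa*, *H2-Eb1* and *Ccr2* had 1, 3 and 3 UMIs in Dmp1KO/Fgf23cKO members, and *H2-Ab1* had 8. The calls of *H2-Aa*, *H2-Ab1* and *H2-Eb1* rest on the few cells described above and were lost with the replicate number as a block.

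In Dmp1KO/Fgf23cKO compared with Dmp1KO members, 731 genes (7.74%) were higher and 735 (7.78%) lower. These 1466 calls became 446 after thinning and 3743 with members chosen within 5 bins of cells ranked by UMIs. They also fell when a Dmp1KO culture was left out. *Gdf15*, a cytokine of the stress response, was at 96.5, 213 and 203 CPM against 13.7 and 22.4 CPM (log2 difference 3.21, SE 0.41, edgeR adjusted P = 0.00156), and it differed by 2.99 in the other cells. *Gm42031* was higher by 2.83 and *Slc16a9* by 2.61, a call lost after thinning, so that *Slc16a9* stood at 28.9 ± 3.72 CPM, between Dmp1KO and WT members. The osteoblast matrix genes *Bglap* and *Ibsp* were higher by 3.52 and 2.59. In members *Bglap* was at 22.2 to 23.9 CPM in Dmp1KO/Fgf23cKO and 1.52 and 2.36 CPM in Dmp1KO cultures. The other myeloid cells of the same reactions held more of it, at 24.2 to 26.1 and 2.62 and 2.97 CPM, and so differed between these genotypes as well. The summed stromal markers of members were 114, 124 and 142 CPM against 79.1 and 95.3 CPM. What part free stromal RNA in the droplets has in the rises of *Bglap* and *Ibsp* was not tested. The class II genes *H2-Aa*, *H2-Eb1*, *H2-Ab1* and *Cd74* were the largest falls with *Fgf13*, which was at 1.66 ± 2.11 CPM against 68.9 ± 18.5 CPM (log2 difference -5.05, SE 0.37, edgeR adjusted P = 3.44e-08), and the 4 class II calls were lost with the replicate number as a block. NF-κB genes were higher for 2 of 16 and interferon-stimulated genes for 2 of 12, beside 7.74% of all genes. Cytokines and effectors were higher for 1 and lower for 3 of 13, and so were chemokine ligands. Lipid-associated macrophage genes were higher for 2 and lower for 6 of 12, beside 7.78% lower of all genes.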

How the data were processed

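Single cells of 16 BMSC culture samples were measured by droplet 3′ RNA-Seq with CellPlex sample tags, and 15 samples were analysed here. Per the submitters' processing notes the authors used Cell Ranger 7.0.1 and build mm10, and the deposited values are raw UMI counts per gene and cell (32285 genes and 12 tags). For the counting of intronic reads, the setting was not given in the sources used here. Live cells had been sorted after trypsin. Multiplets between cultures had been removed by tag, those within a culture were not, and no doublet caller was run. Samples numbered 4 were read as untagged cells and entered tests only as an alternative. Tagged cultures held 9518928 to 72482185 UMIs, and the summed counts tested held 546957 to 3954827 in members and 6701440 to 65205231 in the other cells.

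UMI counts were summed per culture for members and for the other myeloid cells, scaled by TMM, filtered by filterByExpr and tested with edgeR 4.0.16 (quasi-likelihood, R 4.3.3, limma 3.58.1), with culture as a block for members against the rest and no block between genotypes. The threshold was a Benjamini-Hochberg adjusted P under 0.1 over all genes tested. The 16 genes of the rule received no call. Log2 differences come from the fit, and CPM are UMIs per 1000000 gene UMIs without TMM. SD is over cultures. Cells were handled with Python 3.11.15, numpy 2.4.6, scipy 1.17.1 and pandas 2.3.3. The steps were tested on simulated data. The cultures of a genotype shared 1 reaction, so p-values measure only the spread between these cultures.

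Members and gene lists were chosen with earlier results of these data known. Named were the 15 largest rises and 10 largest falls of members against the rest with the same direction in every tagged culture and at least 20 CPM in the higher mean, the 5 smallest interaction p-values, the 5 largest rises and 5 largest falls per genotype comparison without overlap between cultures and with at least 20 CPM, and up to 4 called genes of highest level per list. Other genes named were marker genes, the deleted genes and the score genes. The alternatives were DESeq2 size factors, no filter, DESeq2 1.42.0, an adjusted P of 0.05, each culture left out, untagged samples added, members chosen within 5 bins of cells by UMIs, cells thinned to 2000 UMIs, the top 5% of cells as members, UMIs divided into 2 parts, no cycling or osteoclast-like cells, the block added or removed, and, chosen after seeing the data, no cells rich in class II UMIs. Promoters were taken from NCBI RefSeq on GRCm38.p6.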

Additional observations from a re-analysis of the deposited data

Results flagged for a closer look

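The difference between *Cd86* *Cd83*-high cells and the other myeloid cells differed between genotypes, by the interaction term of edgeR's quasi-likelihood test, for 14 of the 15 most raised and 7 of the 10 most lowered named genes, beside 20.8% of all genes tested. These genes were named for a large difference averaged over the genotypes, Dmp1KO included, so that both counts follow in part from the choice and are not read against that share. Another 5 genes are given that were chosen for their interaction p, so that their calls follow from the choice. The values below are the gap on the log2 scale between the genotype with the largest and that with the smallest log2 difference. Among immediate early and nuclear receptor genes the gap was 2.26 for *Nr4a3*, 1.96 for *Nr4a1*, 2.93 for *Egr1* and 1.14 for *Maff*. Among cytokines, their regulators and early response genes it was 1.97 for *Tnf*, 1.71 for *Il1b*, 2.13 for *Tnfsf18*, 2.30 for *Ier3*, 1.78 for *Zc3h12c* and 1.59 for *Kdm6b*. For the remaining raised genes it was 3.67 for *Ly6a*, 2.02 for *Tbc1d30*, 2.02 for *Cp* and 1.66 for *Tagap*. In each of these 14 genes the difference was largest in Dmp1KO cultures.

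Among genes that were lower in the *Cd86* *Cd83*-high cells the gap was 1.61 for *Fabp4*, 1.57 for *Mfge8*, 2.28 for *Ctsk* and 1.36 for *Htr2b*, with the largest fall in Dmp1KO. It was 1.76 for *Il7r* and 1.61 for *Plpp3*, with the largest fall in Fgf23cKO, and 1.84 for *Itgax*, with the largest fall in Dmp1KO/Fgf23cKO. The 5 genes with the smallest interaction p had gaps of 2.73 for *Spp1*, 2.31 for *Clec4n*, 2.33 for *Marcksl1*, 2.65 for *Gm17268* and 2.25 for *Pf4*, from WT to Dmp1KO. The adjusted P of the 26 genes ran from 1.66e-14 to 0.0533. Of the other named genes of the lists, 46 of 86 tested were called in the interaction, against 20.8% of all genes, and these had been named for being called and abundant.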

How the results depend on the processing

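Of 2561 values for 112 named genes in members against the rest, 2403 kept their direction and side of the threshold, 154 lost the call and 4 changed sign. Of the values for 10 named genes per genotype comparison, the call was lost in 1 of 204 for Dmp1KO against WT, 7 of 205 for Fgf23cKO against WT, 43 of 204 for Dmp1KO/Fgf23cKO against WT and 42 of 204 for Dmp1KO/Fgf23cKO against Dmp1KO. The sign changed for *Fos* (-0.0292) and *Kdr* (0.50) without cycling or osteoclast-like cells, and for *Gdf15* with thinned cells (-0.40) and with members chosen within 5 bins of cells by UMIs (-0.0188). Thinning to 2000 UMIs gave 1384 higher and 1592 lower genes, and leaving out cycling or osteoclast-like cells 1723 and 2184. Interaction calls were 769 after thinning and 1430 within the bins. For Dmp1KO against WT there were 2587 calls, and 1069 with thinned cells, 4086 within the bins and 1364 with the top 5%. For Fgf23cKO against WT there were 1623, and 359 with thinned cells and 730 with the top 5%. For Dmp1KO/Fgf23cKO against WT there were 2404, and 715 with thinned cells and 1295 with the top 5%. For Dmp1KO/Fgf23cKO against Dmp1KO there were 1466, and 916 by DESeq2, 446 with thinned cells, 3743 within the bins and 684 with the top 5%. Fewer molecules or fewer cells were tested after thinning and with the top 5%, and both settings also changed which cells were members. The cause of these and of the other shifts was not tested.

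With 1 culture left out at a time, calls ran from 2656 to 3322 higher and 3582 to 4345 lower genes, 1256 to 3085 for the interaction, 1539 to 2710 for Dmp1KO against WT, 1055 to 1650 for Fgf23cKO against WT, 1698 to 2498 for Dmp1KO/Fgf23cKO against WT and 583 to 1598 for Dmp1KO/Fgf23cKO against Dmp1KO. The lowest of these were without Dmp1KO replicate 3 for the interaction (1351 without replicate 2), without Dmp1KO replicate 2 for both contrasts with Dmp1KO and without WT replicate 2 for Fgf23cKO against WT. A lone Dmp1KO culture was then assumed to vary like the other groups. Same-numbered cultures did not deviate together (r from -0.199 to 0.103 over 15 pairs), so the numbers do not pair the cultures. With the replicate block there were 2329, 1548, 2301 and 1117 calls in the 4 genotype comparisons in the order above, and without the culture as a block (no replicate block) 3737 higher and 4134 lower genes. The class II calls of Dmp1KO/Fgf23cKO members were lost with the replicate block, without single Dmp1KO/Fgf23cKO cultures, with thinned cells and with the top 5%.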
